A study of Mus musculus with 16 samples.

Results

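The regions described here are 500-kb windows of the mouse genome that 4C-seq libraries made from the Cdca3/Usp5 promoter listed repeatedly and libraries made from the Pole/Pxmp2 promoter listed rarely. Circular chromosome conformation capture (4C) ligates and sequences the DNA that lay close to 1 chosen locus, the viewpoint, in fixed nuclei, and the deposited lists hold the restriction sites that the authors called positive in each library. Chromosomes 1, 3, 8, 10, 12 to 16, 17, 18 and 19 (mm9) were divided into windows from position 0. Windows were selected on the numbers of libraries with a listed site: a window was taken when at least 1 site was listed in at least 6 of the 8 Cdca3 libraries and in at most 2 of the 8 Pole libraries. This held for 135 windows (67.5 Mb), which is 10.4% of the 1295 windows of these chromosomes with a site in any library, and 26.9% of the 502 windows with a site in at least 6 Cdca3 libraries. None of these chromosomes carries a viewpoint, so every listed site is a contact between chromosomes (trans).

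The cells were mouse embryonic fibroblasts (MEFs) from E13.5 embryos, dividing cells of passage 4. Those labelled Rb1+/+ have an intact Rb1 gene, and those labelled Rb1L/L are homozygous for the Rb1L allele. Each genotype had 4 cultures, numbered in 4 pairs, and a pair has 1 identifier, used for its Cdca3 and its Pole libraries. A Cdca3 and a Pole library of 1 identifier and genotype were taken to come from the same culture, which the labels do not state, so there were 4 libraries in each of 4 groups. The labels do not say what joins the cultures of a pair, nor whether they came from separate embryos, so p-values measure only the spread between these libraries, which may be technical. No expression was measured here, so the identity of the cells was not checked against marker genes.

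Rb1 encodes pRb, which binds E2F transcription factors and holds back entry into the cell cycle, and the L allele alters the cleft through which pRb binds proteins with an LXCXE motif. Condensin II, named in the title of the series, is a complex that folds chromatin into loops and compacts chromosomes. Cdca3 is a trigger of mitotic entry and Usp5 a deubiquitinating enzyme, and both are read from opposite sides of 1 bidirectional promoter. Pole encodes the DNA-synthesising subunit of a polymerase of genome replication, and its neighbour Pxmp2 a channel of peroxisomes. Trans contacts in 4C data are known to be sparse and to favour active, gene-rich chromatin, so that neighbouring sites tend to be captured in clusters.

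A sequence of the viewpoint locus is shown to identify the promoter from which contacts were read. It is the Cdca3 promoter from RefSeq, chr6:124829926-124830225 (plus strand), in build GRCm38.p6, which is not the build of the windows. It covers 250 bases before to 50 bases after the gene's start. Capitals mark matches to the CCAAT box and to TTTGAA, the core of the cell cycle homology region found in promoters of mitotic genes.

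Cdca3 promoter: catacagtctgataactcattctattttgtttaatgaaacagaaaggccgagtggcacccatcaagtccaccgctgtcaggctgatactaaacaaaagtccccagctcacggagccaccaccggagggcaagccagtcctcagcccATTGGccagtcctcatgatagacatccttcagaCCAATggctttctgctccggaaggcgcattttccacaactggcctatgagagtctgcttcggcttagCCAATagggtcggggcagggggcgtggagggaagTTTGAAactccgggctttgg

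Both strands were searched. TTTGAA matched once, and 17.9% of the 32851 RefSeq promoters of this length hold it. CCAAT matched 3 times, and 37.4% of the promoters hold it. Neither TTTCCCGC nor TTTGGCGC, forms of the E2F site, matched (1.07% and 0.514% of the promoters). The cutting site of HindIII, AAGCTT, is not in these 300 bases (7.45% of the promoters hold it), so the ligated end of the viewpoint fragment lies outside the sequence shown, and that of NlaIII, CATG, is there once (61.1%). No sequence of the windows themselves is given.

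The windows did not escape the Pole promoter entirely. Of the 135, 18 had no site in any Pole library, 54 had sites in 1 and 63 in 2, so 117 were listed at least once by Pole. Within the Cdca3 libraries, 19 windows had a site in all 8, 54 in 7 and 62 in 6. Only 3 windows combined 8 of 8 Cdca3 with 0 of 8 Pole libraries, and 21 lay at both limits of the rule. Just outside it, 81 windows had sites in 5 Cdca3 and at most 2 Pole libraries, and 87 had sites in at least 6 Cdca3 and in 3 Pole libraries. The mean number of sites per Cdca3 library changed gradually across these limits: its median was 9.88 over windows with 6 Cdca3 libraries and 7.88 over those just outside with 5. It was 13 over windows with 2 Pole libraries and 15.1 over those just outside with 3. The opposite rule, at least 6 Pole and at most 2 Cdca3 libraries, found 0 windows. All 116 windows with sites in at least 6 Pole libraries also had sites in at least 6 Cdca3 libraries. They are called shared windows below.

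**Figure D1:**
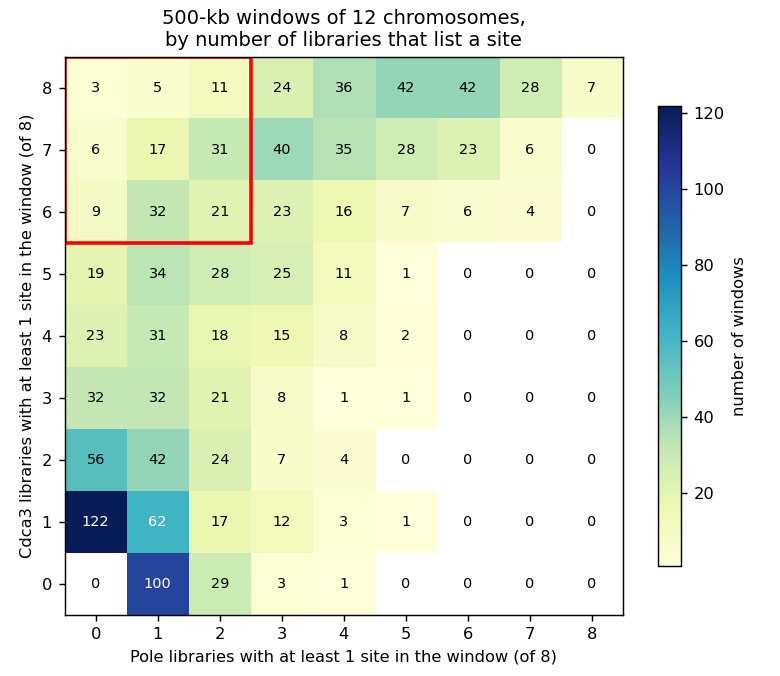
Number of 500-kb windows of the 12 chromosomes for each combination of Cdca3 libraries (vertical axis, 0 to 8) and Pole libraries (horizontal axis, 0 to 8) that list at least 1 site. The red box holds the 135 windows described here; the lower right corner, the opposite rule, holds 0.

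The lists of the viewpoints differ in length, and the rule does not correct for it. On the 12 chromosomes the Cdca3 libraries listed 10801 ± 3705 sites and the Pole libraries 3261 ± 1362 (SD, n = 8 each), a ratio of the means of 3.31, although over all chromosomes the ratio was 2.15. The shortest Cdca3 list, Rb1L/L replicate 1, had 5692 sites on these chromosomes, and the longest Pole list, Rb1L/L replicate 3, had 4767. The values below therefore describe the windows the rule picked, and no test was made between the viewpoints in the libraries that chose them.

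At Cdca3 most libraries listed nearly all of the windows, and 3 libraries did not. In Rb1+/+ cells the windows with a site numbered 81, 104, 130 and 127 in replicates 1 to 4, and in Rb1L/L cells 72, 130, 129 and 129. Replicate 1 of both genotypes and Rb1+/+ replicate 2 were low, and the other 5 libraries lay between 127 and 130. These were also the 3 shortest Cdca3 lists. Of the 178 empty combinations of window and Cdca3 library, 117 (65.7%) fell to the 2 libraries of pair 1. In 86 of the 135 windows (63.7%), all 6 libraries of pairs 2 to 4 listed a site.

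At Pole the windows with a site numbered 4, 5, 35 and 40 in Rb1+/+ and 2, 16, 50 and 28 in Rb1L/L cells, in the order of replicates 1 to 4. The 3 libraries with the most, Rb1L/L replicate 3 and Rb1+/+ replicates 4 and 3, had the 3 longest Pole lists on these chromosomes. As a share, the Pole libraries listed 1.48% to 37.0% of the 135 windows and 11.1% to 40.2% of all 1295 listed windows. Rb1L/L replicate 3 came closest to equal shares, with 37.0% and 39.4%. The Cdca3 libraries listed 53.3% to 96.3% of the 135 and 33.2% to 62.6% of all listed windows. Among the 63 windows with 2 Pole libraries, the pair Rb1+/+ replicate 4 and Rb1L/L replicate 3 was the most frequent, with 18 windows. Both Pole libraries were of 1 numbered pair in 11 of the 63.

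**Figure D2:**
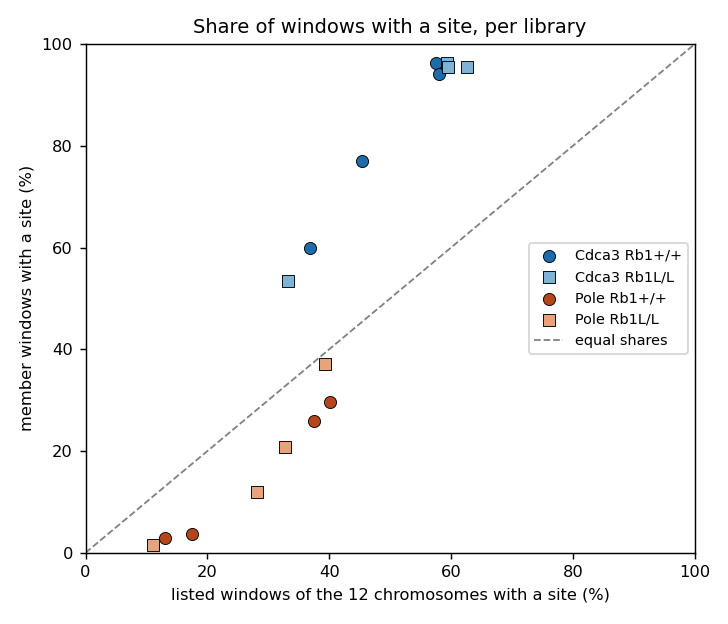
Each point is 1 library: the percent of all 1295 listed windows (horizontal axis) and of the 135 windows (vertical axis) in which it lists a site, with circles for Rb1+/+, squares for Rb1L/L, and the dashed line at equal shares. Cdca3 libraries (blue) lie above the line and Pole libraries (orange) below it, a description of the windows chosen on these libraries, and both rise with the share of all windows listed.

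Where a Cdca3 library listed one of these windows, it listed many sites there. The median number of sites per occupied window was 9, 13, 11.5 and 15 in the Rb1+/+ libraries and 10.5, 18, 20 and 15 in the Rb1L/L libraries, replicates 1 to 4. In the shared windows the same libraries had medians of 18.5 to 31 sites, so the windows described here held fewer Cdca3 sites than those that both promoters contact. In Pole libraries the median per occupied window ran from 4 to 15, over as few as 2 windows. Expressed per 1000 trans sites of the library, the 135 windows held 67.4 to 90.0 sites at Cdca3 and 5.66 to 53.5 at Pole. Both ranges follow from the choice of windows.

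That a window recurred among the Cdca3 libraries follows from the rule, but it seldom did so through the same restriction site. How often single sites recurred in other windows was not counted. The Cdca3 libraries listed 8979 distinct sites in the 135 windows. Of these, 5861 (65.3%) were listed by 1 library and 2231 (24.8%) by 2. At least 6 libraries listed 13 of them (0.145%), spread over 12 windows, and 0 were listed by all 8. The windows had a median of 72 distinct sites over the 16 libraries, against 108 in the shared windows and 45 in all listed windows. The Pole libraries listed 1458 distinct sites there, of which 812 (55.7%) were also listed by a Cdca3 library.

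The calls of significant regions, the second kind of deposited list, drew a less sharp line between the promoters. Every listed site lies in a called region of its library, but a region can also cover a window in which the library lists no site. All 135 windows overlapped a called region in at least 6 Cdca3 libraries, which follows from the rule. In all 8 libraries 73 did (54.1%), against 34.1% of all listed windows and 69.9% of those with sites in at least 6 Cdca3 libraries. At Pole, 96 of the 135 (71.1%) overlapped a called region in at least 3 libraries, more than the 2 that the rule allows for sites. Over all listed windows this share was 64.8%, and over all windows with sites in at least 6 Cdca3 libraries it was 92.2%. The latter include windows with sites in at least 3 Pole libraries, which have such regions by construction. Only 2 of the 135 windows overlapped no Pole region in any library, both on chromosome 13, from 43500001 to 44000000 and from 46500001 to 47000000. By library, Pole regions covered 18.1%, 21.7%, 57.3% and 57.4% of the 135 windows' base pairs in Rb1+/+ and 8.56%, 38.1%, 65.6% and 53.5% in Rb1L/L cells. When contact was defined as a called region over at least 50% of a window, with the same limits of 6 and 2, 136 windows were found. They shared 49 windows with the 135, which is 36.3% of the first list and 36.0% of the second.

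The windows with the highest median number of Cdca3 sites are given by position, followed by their values in every library.

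The highest was chromosome 18 from 32000001 to 32500000. The Rb1+/+ libraries listed 31, 28, 22 and 25 sites there, and the Rb1L/L libraries 28, 37, 27 and 23. Every Cdca3 library listed at least 22, and the genotypes overlapped. Pole Rb1+/+ replicate 3 listed 13 and Pole Rb1L/L replicate 3 listed 18, and the other 6 Pole libraries 0. Both Pole libraries belong to pair 3.

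Chromosome 19 from 7000001 to 7500000 showed the same arrangement. The Cdca3 libraries listed 16, 20, 29 and 23 sites in Rb1+/+ and 3, 38, 40 and 27 in Rb1L/L cells. Only Rb1L/L replicate 1 was low. Pole listed 14 and 19 sites in the replicate 3 libraries of the genotypes and 0 elsewhere.

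Chromosome 1 from 133000001 to 133500000 had 23, 31, 26 and 25 sites in Rb1+/+ and 1, 26, 28 and 20 in Rb1L/L libraries. Rb1L/L replicate 1 was again low, and the others lay between 20 and 31. Pole listed 2 sites in Rb1+/+ replicate 2 and 10 in Rb1+/+ replicate 3.

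Chromosome 10 from 80500001 to 81000000 had 22, 25, 26 and 25 sites in Rb1+/+ and 0, 39, 31 and 20 in Rb1L/L libraries. Pole Rb1+/+ replicate 4 listed 17 sites there and Pole Rb1L/L replicate 2 listed 6. In this window 1 restriction site was listed by at least 6 Cdca3 libraries.

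Chromosome 8 from 112000001 to 112500000 reached the same median, 25, without any site in pair 1. Its Cdca3 values were 0, 9, 26 and 24 in Rb1+/+ and 0, 47, 35 and 29 in Rb1L/L cells, and its Pole values were 7 in Rb1+/+ replicate 3 and 5 in Rb1L/L replicate 4. It shows how the rule admits a window that 2 Cdca3 libraries did not list at all.

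The other 5 windows of this group had medians of 21 to 24 Cdca3 sites. On chromosome 1 they spanned 165000001 to 165500000 and 135500001 to 136000000. On chromosome 17 the window was 34000001 to 34500000, on chromosome 18 it was 67500001 to 68000000, and on chromosome 19 it was 45500001 to 46000000. Each had sites in 1 or 2 Pole libraries, with 9 to 32 Pole sites in all. None of the 10 windows richest in Cdca3 sites was empty in every Pole library.

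The 3 windows listed by all Cdca3 and no Pole library held fewer Cdca3 sites. Chromosome 13 from 44000001 to 44500000 had 14, 5, 16 and 21 sites in Rb1+/+ and 13, 15, 20 and 22 in Rb1L/L libraries. Chromosome 14 from 64000001 to 64500000 had 12, 15, 11 and 8 against 17, 18, 12 and 6. Chromosome 8 from 85500001 to 86000000 had 2, 9, 6 and 4 against 1, 24, 21 and 3, so that its presence in all 8 libraries rests on 1 site in Rb1L/L replicate 1. Called Pole regions nevertheless overlapped the chromosome 13 window in 1 library, and the chromosome 14 and chromosome 8 windows in 5 each.

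**Figure D3:**
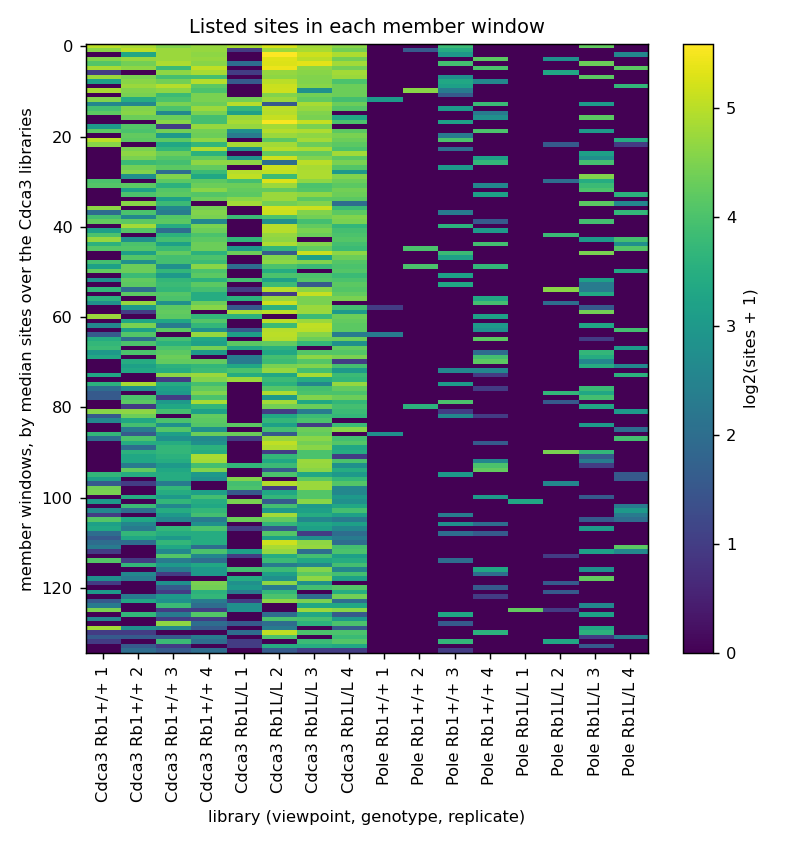
Listed sites, as log2(sites + 1), in the 135 windows (rows, from the highest to the lowest median over the Cdca3 libraries) and the 16 libraries (columns). Cdca3 Rb1+/+ and Rb1L/L replicate 1 have the most empty rows at that viewpoint (54 and 63), and most Pole entries lie in replicates 3 and 4.

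Many of the windows adjoined one another. The 135 formed 82 separate stretches: 48 single windows, 18 of 2 windows, 14 of 3, 1 of 4 and 1 of 5. A neighbour with sites in at least 6 Cdca3 libraries was present for 123 of the 135 (91.1%), against 53.0% of all listed windows and 98.9% of the 367 windows with sites in at least 6 Cdca3 and at least 3 Pole libraries. Such windows lay on both sides of 48 (35.6%). Among the 367, 65.9% had them on both sides. A window with at least 3 Pole libraries bordered 65 of the 135 (48.1%), against 51.6% of all listed windows and 98.1% of the 367. These are counts over neighbouring windows, which share called regions and are not independent.

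The longest stretch was 2.5 Mb, on chromosome 1 from 165000001 to 167500000. It held 66, 58, 57 and 79 sites in the Cdca3 Rb1+/+ libraries and 4, 145, 110 and 88 in the Rb1L/L libraries. Pole Rb1+/+ replicate 4 listed 67 sites in it, in the range of the Cdca3 libraries, and Pole Rb1L/L replicates 3 and 4 listed 11 and 23. The next was 2.0 Mb on chromosome 19, from 44000001 to 46000000, with 51, 70, 64 and 36 against 0, 40, 85 and 81 Cdca3 sites, and 52 sites in Pole Rb1L/L replicate 3. Of the 14 stretches of 3 windows, which are equally long, the first 3 in genome order are given. That on chromosome 1 from 38500001 to 40000000 had almost no Pole site, 2 in Rb1L/L replicate 4 and 0 in the other 7. Its Cdca3 libraries listed 28, 0, 23 and 28 sites in Rb1+/+ and 63, 14, 53 and 29 in Rb1L/L cells, and here the library of Rb1L/L replicate 1 was the highest. The stretch on chromosome 1 from 134500001 to 136000000 held 8, 63, 37 and 68 against 2, 76, 55 and 40. That on chromosome 8 from 110000001 to 111500000 held 57, 59, 39 and 42 against 7, 23, 22 and 42.

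The windows were spread over all 12 chromosomes, unevenly. Chromosome 1 held 25 and chromosome 14 held 23, followed by chromosome 10 with 16, and chromosome 17 held the fewest, 5. As a share of the windows with at least 6 Cdca3 libraries, chromosomes 19 (47.6%, 10 of 21) and 14 (46.9%, 23 of 49) were highest and chromosomes 17 (12.5%), 3 (14.9%) and 8 (15.1%) lowest. With each chromosome divided into 3 equal parts from the centromeric end, 14 windows lay in the first part, 61 in the middle and 60 in the last. Of all 1295 listed windows, 317, 416 and 562 did. The centromeric part thus held 10.4% of these windows, 13.9% of all windows with at least 6 Cdca3 libraries and 24.5% of all listed windows.

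Whether the higher share at Cdca3 returns in libraries that did not choose the windows was tested across the genotypes. The Cdca3 lists are longer in both genotypes, and scaling to 1000 sites may not remove the effect of list length. The p-values of this comparison therefore cannot separate list length from a preference for Cdca3. Windows with sites in at least 3 of 4 Cdca3 and at most 1 of 4 Pole libraries of 1 genotype were chosen, and their sites per 1000 listed sites on the 12 chromosomes were measured in the other genotype. The Rb1+/+ libraries chose 213 windows, of which 113 are among the 135. In the Rb1L/L libraries these windows held 181, 220, 234 and 252 sites per 1000 at Cdca3 and 112, 160, 184 and 183 at Pole, replicates 1 to 4. The lowest Cdca3 value lay within the Pole values. The means were 222 ± 30.2 and 160 ± 34.0 (SD, n = 4 each), a difference of 62.2 with a 95% interval from -2.88 to 141 (exact two-sided permutation p = 0.0857, adjusted over 4 tests 0.171, higher at Cdca3 in 4 of 4 assumed cultures). With 1 library left out the difference ran from 46.2 (without Pole Rb1L/L replicate 1, exact permutation p = 0.114) to 75.8 (without Cdca3 Rb1L/L replicate 1, p = 0.0286). With 0.01 as the limit on the deposited value it was 40.1 (exact permutation p = 0.257).

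The Rb1L/L libraries chose 263 windows, 119 of them among the 135. In the Rb1+/+ libraries these held 206, 258, 273 and 290 sites per 1000 at Cdca3 and 152, 107, 175 and 194 at Pole, without overlap. The means were 257 ± 36.2 and 157 ± 37.8 (SD, n = 4 each), a difference of 100.03 with a 95% interval from 11.7 to 183 (exact two-sided permutation p = 0.0286, the smallest the design allows, adjusted over 4 tests 0.114, higher at Cdca3 in 4 of 4 assumed cultures). Neither direction passed 0.05 after adjustment. The unadjusted p of the second rose to 0.0571 when any 1 of the Pole Rb1+/+ replicates was left out, with differences of 83.3 to 113, and with 0.01 as the limit on the deposited value. With the libraries compared within the cultures assumed to be shared, p was 0.125 in both directions, the smallest that exact sign flips of 4 pairs allow. The stricter choice, 4 of 4 Cdca3 and 0 of 4 Pole libraries, left 22 windows chosen in Rb1+/+ and 29 chosen in Rb1L/L. Their differences, summed over these fewer windows, were 8.30 (p = 0.0286) and 7.86 (p = 0.371, exact permutation tests) sites per 1000.

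In most of these unused libraries the Pole share of the chosen windows lay near its share of all listed windows, which include them. Rb1+/+ replicate 2 was the furthest below, with 10.3% against 17.5%. In Rb1L/L cells Pole listed a site in 7.98%, 28.2%, 45.5% and 35.7% of the 213 windows, and in 11.1%, 28.2%, 39.4% and 32.7% of all listed windows, replicates 1 to 4. In Rb1+/+ cells it listed 10.3%, 10.3%, 39.2% and 44.1% of the 263 windows, and 13.1%, 17.5%, 37.5% and 40.2% of all listed windows. Cdca3 listed 39.9%, 82.6%, 88.7% and 87.3% of the 213 in Rb1L/L cells, against 33.2%, 59.4%, 62.6% and 59.5% of all. In Rb1+/+ cells it listed 44.9%, 65.0%, 80.6% and 84.8% of the 263, against 36.8%, 45.3%, 57.5% and 58.0% of all. As a test of these percentages, the mean over the chosen windows was higher at Cdca3 than at Pole by 45.3 percentage points for the 213 windows (exact two-sided permutation p = 0.0571) and by 42.9 for the 263 (p = 0.0286, exact permutation). Over all listed windows the mean shares at Cdca3 and Pole were already 53.7% and 27.8% in Rb1L/L cells. In Rb1+/+ cells they were 49.4% and 27.1%. The Cdca3 lists are longer in both genotypes, so these p-values cannot separate list length from a preference for the chosen windows. The comparison with all listed windows is a description, without a test. Against all listed windows, the Cdca3 share was again higher in the unused libraries, and the Pole share was lower in some libraries and higher in others.

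**Figure D4:**
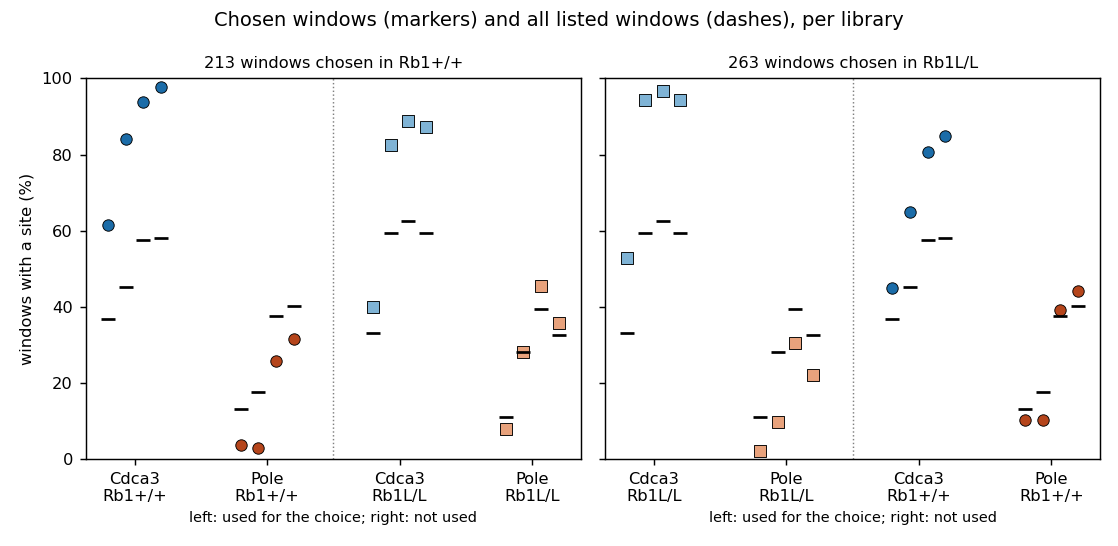
Percent of windows with a site in each library, for windows chosen in Rb1+/+ (left panel, 213 windows) or in Rb1L/L libraries (right panel, 263). Markers are the chosen windows and dashes are all 1295 listed windows; left of each dotted line are the libraries used for the choice and right of it those not used, where the Pole markers lie near their dashes.

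Few such windows were left once the lists were made equally long, an alternative chosen after the data had been seen. When each Cdca3 list was shortened to the length of the Pole list of the same genotype and replicate number on the 12 chromosomes, keeping the sites with the lowest deposited values and dropping ties at the limit, 3 windows met the rule, all of them among the 135. The opposite rule then found 13. In these shortened lists the sites were concentrated: a Cdca3 library covered 114 to 287 windows, and a Pole library 144 to 520. With all 16 lists shortened to the shortest, 13 windows met the rule, 1 of them among the 135, and 6 met the opposite rule. A limit of 0.01 on the deposited value gave 137 windows, but only 50 of them were among the 135 (36.5% of the first list and 37.0% of the second). Leaving out 1 library, with the other limits kept, gave between 76 windows (without Cdca3 Rb1L/L replicate 4) and 192 (without Pole Rb1+/+ replicate 4).

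Rb1L/L cells did not differ detectably from Rb1+/+ cells in Cdca3 contacts with these windows. However, the rule chose the windows on the same Cdca3 libraries, with both genotypes counted together. A window listed in the libraries of 1 genotype only could not be chosen, so similar values in the genotypes are partly built in. The comparison therefore covers the number of sites in windows listed in both genotypes, and cannot show windows contacted in 1 genotype alone. Per 1000 trans sites, the 135 windows held 67.4, 76.5, 83.5 and 88.3 sites in the Rb1+/+ libraries and 83.1, 83.9, 86.5 and 90.0 in the Rb1L/L libraries. The groups overlapped, and the 2 lowest values were Rb1+/+ replicates 1 and 2. The means were 78.9 ± 9.10 and 85.9 ± 3.11 (SD, n = 4 each), a difference of 6.98 with a 95% interval from -5.17 to 22.6 (exact two-sided permutation p = 0.229, adjusted over 4 tests 0.305, higher in Rb1L/L in 4 of 4 pairs). It fell to 3.14 without Rb1+/+ replicate 1 and was 10.1 without Rb1+/+ replicate 4. With exact sign flips within the numbered pairs p was 0.125, the smallest that 4 pairs allow. All other windows of the 12 chromosomes held 453 ± 10.5 and 461 ± 3.41 sites per 1000 (SD, n = 4 each), a difference of 8.06 (exact permutation p = 0.143).

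The share of the windows' base pairs inside called Cdca3 regions was 78.7%, 88.0%, 98.9% and 98.5% in Rb1+/+ and 73.4%, 99.0%, 98.3% and 99.3% in Rb1L/L libraries. Since listed sites lie in called regions, the rule favours high cover. Most libraries were near the upper limit, which leaves little room for a difference between genotypes to show. The means were 91.0% ± 9.64 and 92.5% ± 12.7 (SD, n = 4 each), a difference of 1.43 percentage points with a 95% interval from -25.5 to 20.6 (exact two-sided permutation p = 0.829, adjusted over 4 tests 0.829, higher in 2 of 4 pairs). Its sign changed when single libraries were left out, from -2.68 (Rb1+/+ replicate 1 left out) to 7.80 (Rb1L/L replicate 1 left out).

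Window by window, limma called 0 of 1732 tested trans windows of the genome at an adjusted p under 0.05 (0%), and hence 0 of the 135, all of which passed the filter of 8 sites (smallest adjusted p = 0.749). At an unadjusted p under 0.05 it found 8 of the 135 (5.93%), against 4.91% of all tested windows. Of these, 4 were higher in Rb1L/L (2.96% of the 135, against 1.79% of all tested windows) and 4 lower (2.96%, against 3.12%). These windows were tested with limma alone. The rule left out windows listed in 1 genotype only, and the set of all tested windows did not, so these percentages are not strictly comparable. The log2 fold changes of the 135 had a median of 0.06, with 69 above and 66 below 0, and the median over all tested windows was -0.01. The median 95% interval of a window was ± 2.96 on the log2 scale, and for 3 of the 135 it was under ± 1, so that changes of several fold in 1 window were not detectable with these libraries.

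None of the following 6 windows, those with the smallest p-values in each direction, passed the test. Chromosome 14 from 46500001 to 47000000 held 2, 1, 4 and 0 sites in Rb1+/+ and 14, 30, 26 and 16 in Rb1L/L libraries, without overlap. Its log2 fold change was 3.39 ± 1.57 (SE), and limma's adjusted p was 0.749. On the same chromosome, the window from 62500001 to 63000000 held 1, 1, 0 and 0 against 3, 32, 15 and 15 sites, also without overlap after scaling. Chromosome 19 from 37000001 to 37500000 held 0, 0, 23 and 14 against 28, 45, 33 and 15, with overlap. In the other direction, chromosome 1 from 133000001 to 133500000, whose sites are given above, had 1.51 ± 0.268 and 0.740 ± 0.435 sites per 1000 trans sites (SD, n = 4 each), without overlap. Its log2 fold change was -1.33 ± 0.556 (SE, limma's adjusted p = 0.749), and -0.64 without Rb1L/L replicate 1, which listed 1 site. The chromosome 10 window already described and chromosome 1 from 95000001 to 95500000 had log2 fold changes of -1.46 and -1.92, and in both Rb1L/L replicate 1 listed 0 sites. Without that library they were -0.31 and -0.98. In all, the scaled values of the genotypes did not overlap in 5 of the 135 windows, 3 higher and 2 lower in Rb1L/L, against 2.71% of all tested windows in either direction (0.808% higher and 1.91% lower).

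**Figure D5:**
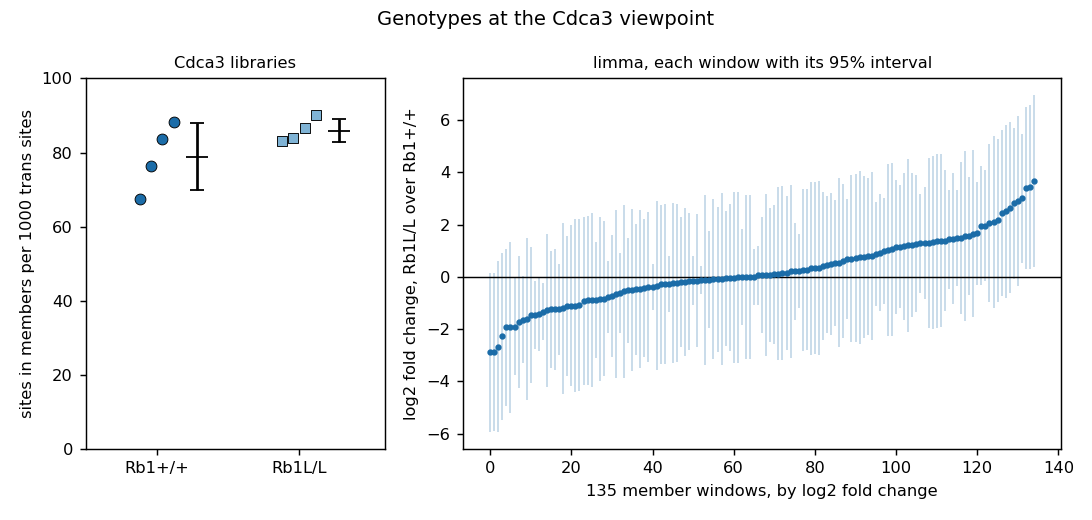
Left, sites in the 135 windows per 1000 trans sites in each Cdca3 library, with the mean and SD of each genotype beside the points (78.9 ± 9.10 and 85.9 ± 3.11). Right, limma's log2 fold change of Rb1L/L over Rb1+/+ for each of the 135 windows with its 95% interval, most of which cross 0.

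At Pole, where the rule keeps the values low, the 135 windows held 5.66, 16.2, 35.1 and 37.1 sites per 1000 trans sites in Rb1+/+ and 10.3, 14.4, 53.5 and 35.1 in Rb1L/L libraries. Replicates 3 and 4 were the highest in both genotypes.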

How the data were processed

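Per the labels' protocols, chromatin fixed in 1% formaldehyde was cut with HindIII, ligated, cut with NlaIII and amplified from the viewpoint. Coordinates are mm9 (named in the submitters' processing notes). Aligner and site caller: not given in the sources used here. For each library the authors deposited a list of sites with a p-value or q-value (which of these is not settled, and all are below 0.05) and a list of called regions with coordinates only. No read counts were used, so depth is unknown, and the number of listed sites is the only measure of yield; no counting interval is given.

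Sites were counted per 500-kb window. The members and lists were chosen with earlier results of these data known. The windows named are the 10 with the highest Cdca3 median, those with 8 of 8 Cdca3 and 0 of 8 Pole libraries, the 5 longest stretches (ties by chromosome and start, which left 3 of 14 equally long ones), and the 3 smallest limma p-values in each direction. Exact permutation over 70 assignments of libraries (smallest p 0.0286) compared genotypes at Cdca3, and viewpoints in windows chosen in the other genotype. Benjamini-Hochberg adjustment was over the 4 main tests of these kinds. Genotypes were also compared by limma 3.58.1 (R 4.3.3) for 1732 trans windows with at least 8 Cdca3 sites in all. It used a mean-variance trend on log2 of sites plus 0.5, scaled to the library's trans sites. The limma script was tested on simulated data, which did not model libraries with many empty windows. That run therefore gives no measure of power for the windows described here. Alternatives were other windows, limits, measures and list lengths, a replicate block and each library left out; the equal-length lists were added after the data had been seen.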

Additional observations from a re-analysis of the deposited data

Results flagged for a closer look

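In 50 checks of 4 libraries of 1 group (4 summary measures in the 4 groups, and the Cdca3 sites of each named window in both genotypes), 6 values stood apart from the other 3 libraries. Chance flags about 1 check in 20. Cdca3 Rb1L/L replicate 1 accounted for 5 of them. It listed a site in 72 of the 135 windows, and its called regions covered 73.4% of their base pairs, both below its group. It listed 1 site on chromosome 1 from 133000001 to 133500000 and 3 sites on chromosome 19 from 7000001 to 7500000, both low. On chromosome 18 from 32000001 to 32500000 its 28 sites were high once scaled to its trans sites. The sixth value was that of Rb1+/+ replicate 3 in the same chromosome 19 window, 29 sites, which was high after scaling. Rb1L/L replicate 1 had the shortest Cdca3 list, with 10537 trans sites, and the part of list length in these values was not tested.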

How the results depend on the processing

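The number of windows was 263 with 250-kb windows, 31 with at least 7 Cdca3 and at most 1 Pole libraries, 3 with 8 and 0, 3 with each Cdca3 list shortened to its Pole list and 13 with all lists at the shortest length, and 76 to 192 with 1 library left out. The difference in called-region cover between genotypes ran from -2.68 to 7.80 percentage points with 1 library left out, and that in sites per 1000 from 3.14 to 10.1. For windows chosen in Rb1+/+, the difference between viewpoints was 8.30 with 4 of 4 and 0 of 4 libraries (exact permutation p = 0.0286), 40.1 with deposited values under 0.01 (p = 0.257), and 46.2 to 75.8 with 1 library left out. For those chosen in Rb1L/L it was 120 with deposited values under 0.01 (p = 0.0571), 7.86 with 4 of 4 and 0 of 4 (p = 0.371), and 83.3 to 117 with 1 library left out (exact permutation p up to 0.0571). Stricter limits leave fewer windows, and smaller windows are more numerous, by construction. The cause of the other changes was not tested.

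With the replicate number as a block, pairing Cdca3 and Pole libraries, it was 100.03 with p = 0.125, the smallest that exact sign flips of 4 pairs allow. Between genotypes, the deviations of same-numbered Cdca3 libraries over all tested windows correlated at 0.154, 0.0691, 0.114 and 0.0394, so the numbers were not taken to pair Rb1+/+ with Rb1L/L cultures. This check does not bear on the pairing of the viewpoints. limma called 0 of the 135 windows under every alternative run, the block included.

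Of the named windows' fold changes, that of chromosome 14 from 64000001 to 64500000 was 0.55 with deposited values under 0.01 and -0.58 to 0.21 with 1 library left out. The range included 0 also for the chromosome 18 window starting at 32000001 (-0.44 to 0.072), those of chromosome 8 starting at 112000001 (-0.66 to 1.76) and 85500001 (-0.13 to 0.71), and that of chromosome 19 starting at 7000001 (-0.59 to 0.12). It did so for the windows starting at 34000001 on chromosome 17 (-1.47 to 0.91) and at 44000001 on chromosome 13 (-0.20 to 0.46). With no read counts, a window without a listed site cannot be told apart from one that was read too thinly.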
